A study of Mus musculus with 6 samples.

Results

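The CCN genes encode secreted matricellular proteins, which sit in the extracellular matrix and signal to cells rather than build the scaffold. The 5 genes described here are Cyr61 (Ccn1), Ctgf (Ccn2), Nov (Ccn3), Wisp1 (Ccn4) and Wisp2 (Ccn5), out of 43496 gene entries in the deposited table. They were chosen by gene symbol, and where a symbol stood on several rows the row with the highest mean level was to be taken. No symbol was repeated, so no measured value decided between rows. The family was put forward with the difference in Cyr61 between genotypes already known, so the comparison of genotypes is given for these genes as a description and is not independent support. Wisp3 (Ccn6), the sixth gene of the family, is not one of the 5 and is given only for completeness.

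The tissue was the cranial base of E15.5 mouse embryos, a plate of cartilage and forming bone under the brain, and its RNA was sequenced. There were 3 control embryos, labelled only as controls, and 3 embryos with a mutant Memo1 allele that came from ENU, a chemical mutagen. All 6 were of the C57BL/6J strain, and each gave 1 library. The sources used here give neither the zygosity of the mutants nor the genotype of the controls. Levels are FPKM, fragments scaled to transcript length and to the size of the library, so that genes can be set beside each other.

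CCN proteins are built from modules that also occur in other secreted proteins: an IGF-binding protein-like module, a von Willebrand factor type C module, a thrombospondin type 1 repeat and a cysteine knot at the C-terminal end, which Wisp2 lacks. They bind integrins, syndecans, LRP receptors and growth factors. Cyr61 and Ctgf are textbook target genes of the Hippo pathway, in which the coactivators YAP and TAZ act through the TEAD factors, and they also respond to TGF-beta, SRF and mechanical load. In cartilage Ctgf takes part in chondrocyte growth and matrix production, Cyr61 promotes chondrogenesis, Nov tends to restrain bone and cartilage differentiation, and the Wisp genes are named as Wnt-induced secreted proteins. The table's gene IDs are ENSMUSG00000028195 for Cyr61, ENSMUSG00000019997 for Ctgf, ENSMUSG00000037362 for Nov, ENSMUSG00000005124 for Wisp1 and ENSMUSG00000027656 for Wisp2. In the mouse annotation Cyr61 lies on chromosome 3, Ctgf on chromosome 10, Nov and Wisp1 on chromosome 15 and Wisp2 on chromosome 2. Each of the 5 genes has 5 exons in its principal transcript. The coding sequence spans 379 codons in Cyr61, 348 in Ctgf, 354 in Nov, 367 in Wisp1 and 251 in Wisp2, the short form without the cysteine knot.

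The promoter of Cyr61 is shown because Cyr61 was the 1 gene of the family whose groups did not overlap, and because TEAD sites are the route by which YAP and TAZ reach it. Of the 5 genes, 1 matched the RefSeq promoter table, and Ctgf, Nov, Wisp1 and Wisp2 did not. The 250 bases before the start of Cyr61 lie at chr3:145649986-145650235 of GRCm38.p6 on the minus strand and are given 5′ to 3′. Capitals mark, in their order along the promoter, the core letters of a TEAD site (CATTCC) and a TATA box.
Cyr61 promoter: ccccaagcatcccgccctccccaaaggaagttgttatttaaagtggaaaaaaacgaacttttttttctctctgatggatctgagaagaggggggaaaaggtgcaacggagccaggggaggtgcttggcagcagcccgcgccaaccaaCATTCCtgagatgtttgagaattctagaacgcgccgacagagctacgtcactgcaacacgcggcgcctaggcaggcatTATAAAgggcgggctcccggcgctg
Both motifs were searched on both strands, and each was found once, on the strand of the gene. The TEAD letters covered bases 103 to 98 before the start. The TATA box, searched as TATAAA, covered bases 25 to 20 before it, with no overlap between them. Of 32851 promoter windows of this length in the table, 12.6% held the TEAD letters and 12.4% the TATA box. A CArG box, the site of SRF, was not among the letters of this window, and 1.47% of all windows held one. These matches describe letters, and no binding was measured.

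The 6 libraries were not equal in quality. The table holds no counts, but steps between its lowest values gave relative depths, with control 1 as the base, of 80.2% and 93.4% for the other controls and of 117% and 152% for mutants 2 and 3. No such step could be read in mutant 1, which stood apart, with r from 0.749 to 0.763 against the other libraries on log2 values, where the other 5 reached 0.969 to 0.981 among themselves. It listed 823 genes at 0 that were above 5 FPKM in each of the other 5. In mutant 1 the 5th percentile of values above 0 was 1.87 FPKM, against 0.0258 to 0.0364 FPKM in the other 5. It had 30811 entries at 0, against 19787 to 20594 in the other 5. Memo1 mRNA overlapped between the groups, at 19.1 to 23.1 FPKM in controls and 20.1 to 25.4 FPKM in mutants, and an allele from ENU need not change the amount of mRNA, which leaves the genotype labels unchecked. Chondrocyte collagen Col2a1 stood at 1570 to 2660 FPKM over the libraries, so the labelled tissue carried its defining cartilage marker.

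In control cranial base 4 of the 5 genes were expressed at moderate levels and Wisp2 was near the lower limit. Ctgf was highest at a mean of 36.2 FPKM with an SD of 2.56, and Cyr61 was next at 31.8 FPKM with an SD of 0.990. Wisp1 followed at 26.8 FPKM with an SD of 3.46, then Nov at 23.3 FPKM with an SD of 3.84 (n = 3 for each). The ranges of Ctgf and Cyr61 did not overlap, nor did those of Cyr61 and Wisp1. The ranges of Wisp1 and Nov overlapped, although Wisp1 was above Nov within each of the 3 control libraries. Among all genes tested Ctgf lay at percentiles 80.5 to 83.3 of the control libraries, Wisp1 at 72.4 to 78.9 and Wisp2 at 1.97 to 5.91.

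**Figure D1:**
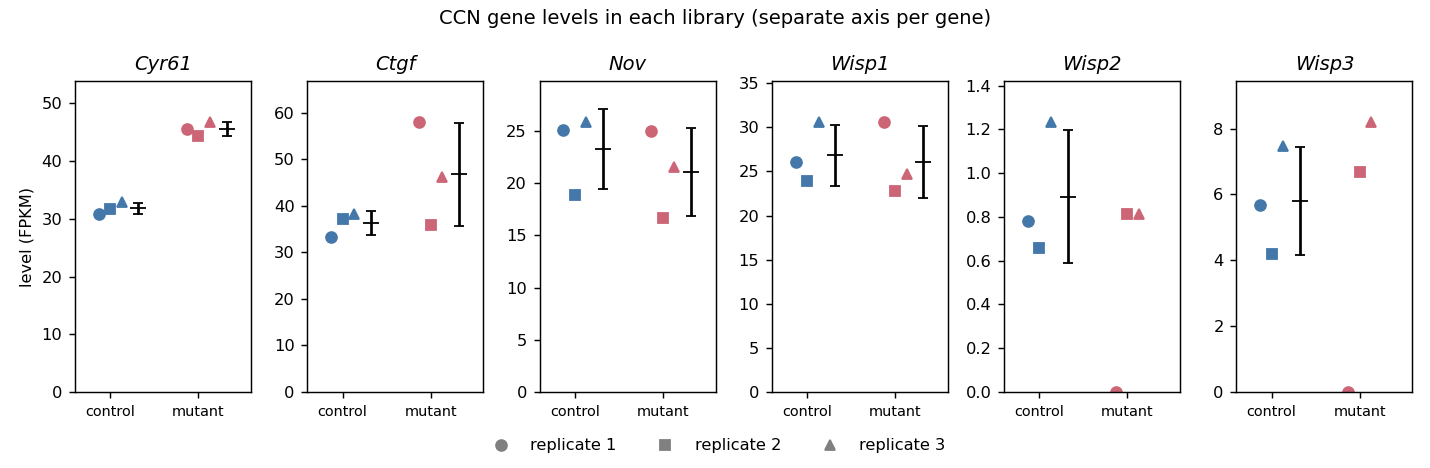
Level of each CCN gene in FPKM, with a separate vertical axis per gene starting at 0, in 3 control and 3 mutant libraries; symbols give the replicate, whose number pairs no samples, and bars give mean and SD where no library is listed at 0. For Cyr61 the mutants (44.4 to 46.8 FPKM) lie above the controls (30.9 to 32.8 FPKM), and for the other genes the groups overlap.

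Cyr61, the family member best known for angiogenic and chondrogenic activity, was higher in every mutant than in any control. It measured 30.9, 31.7 and 32.8 FPKM in controls 1, 2 and 3 and 45.6, 44.4 and 46.8 FPKM in mutants 1, 2 and 3. In FPKM the 3 mutants lay close to each other and the gap to the highest control was larger than the range within either group. By rank among all genes tested mutant 1 was nearer the controls. Cyr61 lay at percentiles 78.7 to 80.5 of the controls, and at 82.2, 86.1 and 87.2 of mutants 1, 2 and 3. The ratio of the group means was 1.43, with all 3 mutants and again with mutant 1 left out. Of all genes tested, 8.98% had every mutant above every control. On the log2(FPKM + 1) scale the difference was 0.51 (SE 0.095), and it did not pass in the fit over all 15710 genes with equal weights (limma adjusted p = 0.695, unadjusted p = 0.00188). That fit called 0% of the genes, 805 of them had an unadjusted p under 0.05, and its smallest adjusted p was 0.0711.

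Cyr61 was called in 1 of the 15 alternatives, that with array weights for all libraries. These let a library far from its group count less, and they gave mutant 1 a weight of 0.0329, where the other 5 libraries had 1.47 to 2.76. Cyr61 then passed (log2 difference 0.52, SE 0.067, limma adjusted p = 0.0223). That p still counted mutant 1 as a library, although it had almost no weight in the fit. That setting called 0.719% of genes as higher in mutants and 1.32% as lower. Without mutant 1 Cyr61 did not pass (log2 difference 0.51, SE 0.075, limma adjusted p = 0.0698), where 0.0446% of genes were called. The direction was the same in all 15 alternatives tried, from 0.42 to 0.53, and the limma adjusted p ran from 0.0223 to 0.873. Mutant 1 itself sat between mutants 2 and 3 for Cyr61, 0.00041 above their mean on the log2 scale. For 2648 genes between 20 and 60 FPKM in the other 5 libraries, the same deviation of mutant 1 had quartiles of -0.37 and 0.59. Over those genes the median deviation was 0.11. In the authors' deposited table Cyr61 had a p of 1.07e-04 and a q of 0.0941, at rank 13 of 26086 entries by p.

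**Figure D2:**
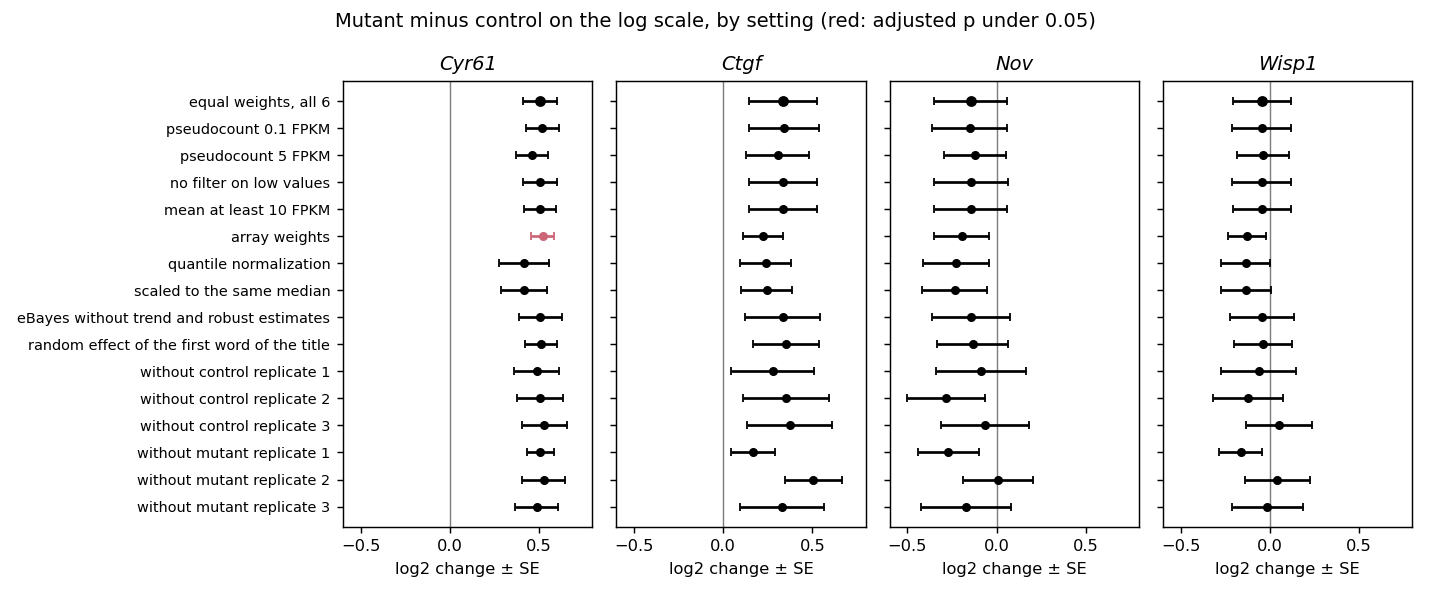
Difference between mutants and controls in log2 values (horizontal axis, with SE bars) for Cyr61, Ctgf, Nov and Wisp1, with 1 row per analysis setting, the top row being all 6 libraries at equal weight. Cyr61 stays between 0.42 and 0.53 and is red, past the threshold, with array weights only, while Nov and Wisp1 cross 0.

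Ctgf, the connective tissue growth factor of fibrous and cartilaginous matrix, was less uniform. Controls 1, 2 and 3 were at 33.3, 37.1 and 38.2 FPKM, and mutants 1, 2 and 3 at 58.1, 36.0 and 46.1 FPKM. Mutants 1 and 3 lay above the controls, mutant 2 lay inside their range, and the mutants spread far more than the controls (SD 11.1 FPKM against 2.56, n = 3). The log2 difference was 0.33 (SE 0.19, limma adjusted p = 0.695). It depended on mutant 1, the highest value: without it the difference was 0.17 (SE 0.12, limma adjusted p = 0.544), and without mutant 2 it was 0.51 (SE 0.16, limma adjusted p = 0.496). No setting called Ctgf. The annotation has the gene Gm15270 on the opposite strand at the Ctgf locus, and since the sources used here do not say whether counting used strand, reads of the pair cannot be told apart.

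Nov and Wisp1 had mutant levels inside or around the control range. Nov, which binds Notch1 and is linked to restraint of osteoblast differentiation, measured 25.1, 18.9 and 25.9 FPKM in controls 1, 2 and 3 and 24.98, 16.6 and 21.6 FPKM in mutants 1, 2 and 3. Only mutant 2 was below the lowest control. The log2 difference was -0.14 (SE 0.20, limma adjusted p = 0.741), and its sign turned without mutant 2 (0.0081). Wisp1, which binds decorin and biglycan and is made by osteoblast precursors, measured 26.0, 23.9 and 30.6 FPKM in controls 1, 2 and 3 and 30.6, 22.8 and 24.7 FPKM in mutants 1, 2 and 3. Its groups overlapped, with a log2 difference of -0.045 (SE 0.16, limma adjusted p = 0.892) that turned positive without control 3 (0.051) and without mutant 2 (0.042).

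Wisp2, the member without the cysteine knot, was too low for the test, with a mean over all 6 libraries under the 1 FPKM asked for. It was listed at 0.782, 0.658 and 1.24 FPKM in controls 1, 2 and 3 and at 0, 0.811 and 0.815 FPKM in mutants 1, 2 and 3. Mutants 2 and 3 lay inside the control range. With no filter on low values Wisp2 entered the test and was not called (limma adjusted p = 0.759). The controls had 5.69, 4.20 and 7.48 FPKM of Wisp3, and mutants 1, 2 and 3 had 0, 6.69 and 8.21 FPKM, and the sign of its difference turned with mutant 1 (log2 difference -0.69, and 0.34 without that library). Its locus overlaps Tube1 on the opposite strand. A listed 0 in mutant 1 is no measure of absence, since 20.9% of the 1189 genes between 4 and 8 FPKM in the other 5 libraries were also listed at 0 there.

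The shares of the 5 genes in their summed level are given as a description, since Cyr61 led to the choice of the family and a permutation test of 3 libraries against 3 cannot go below p = 0.1. Cyr61 made up 26.6%, 28.2% and 25.5% of the summed FPKM of the 5 genes in controls 1, 2 and 3, and 28.6%, 36.8% and 33.4% in mutants 1, 2 and 3. Each mutant share was above each control share, the lowest by little. Nov made up 21.6%, 16.8% and 20.1% in the controls and 15.7%, 13.8% and 15.4% in mutants 1, 2 and 3. Wisp1 made up 22.4%, 21.3% and 23.8% in the controls and 19.2%, 18.9% and 17.6% in the mutants. For both, each mutant share was below each control share. The mean difference was 6.19 percentage points for Cyr61, -4.56 for Nov and -3.89 for Wisp1, and each gave that smallest p (exact two-sided permutation test, p = 0.1, and 0.167 adjusted over the 5 shares). The shares of Ctgf (2.58 points, exact permutation p = 0.3) and Wisp2 (-0.32 points, exact permutation p = 0.2) overlapped between groups. Shares add to a whole, so a larger Cyr61 share by itself lowers the others, and no share depends on the scaling of a library.

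**Figure D3:**
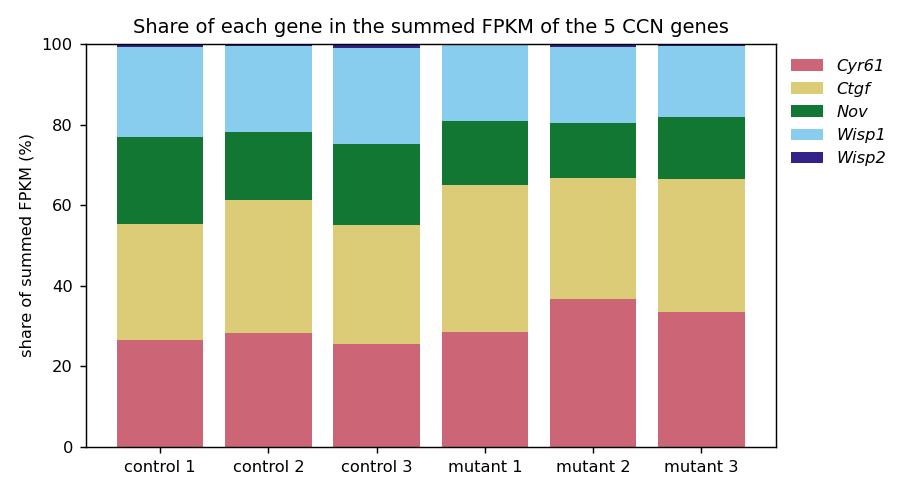
Stacked bars of the share of each of the 5 CCN genes in their summed FPKM, in percent, for each of the 6 libraries. The Cyr61 part is 25.5% to 28.2% in controls and 28.6% to 36.8% in mutants, and the Nov and Wisp1 parts are smaller in each mutant than in each control.

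The order of Ctgf and Cyr61 also differed. Ctgf was above Cyr61 in 3 of 3 control libraries and in 1 of 3 mutant libraries, mutant 1. The ratio of Cyr61 to Ctgf was 0.926, 0.853 and 0.860 in controls 1, 2 and 3 and 0.786, 1.23 and 1.02 in mutants 1, 2 and 3. Mutants 2 and 3 were above the controls and mutant 1 below them, so the ratio overlapped between groups. Wisp1 was above Nov in all 6 libraries.

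The genes whose level followed that of Cyr61 most closely were found over all 6 libraries among 8430 genes averaging 10 FPKM or more, by Pearson's r of log2(FPKM + 1). They were Cd9, a tetraspanin (r = 0.998), Cspg4, the NG2 proteoglycan of pericytes and progenitors (r = 0.994), Fbln7, a fibulin (r = 0.992), Enpp1, the enzyme that makes pyrophosphate (r = 0.990), and Matn4, a cartilage matrilin (r = 0.988). In each of the 5 every mutant was above every control, and over the 5 libraries without mutant 1 their r was 0.986 to 0.999. These r are taken over the same 6 libraries, which differ in depth and fall into the 2 genotypes, and they carry no test. Cspg4 measured 13.7, 13.2 and 14.4 FPKM in controls 1, 2 and 3 and 20.2, 20.2 and 21.0 FPKM in mutants 1, 2 and 3. The ratio of Cyr61 to Cspg4 accordingly stayed within 2.20 to 2.41 in all 6 libraries. Cd9 had a like shape and a far smaller difference, at 107.7 to 109.1 FPKM in controls and 117.0 to 118.8 FPKM in mutants.

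Ctgf had other genes beside it. The closest were Skil, a feedback inhibitor of TGF-beta signalling (r = 0.992), 9030624J02Rik (r = 0.989), Erg, an ETS factor of endothelium and articular cartilage (r = 0.987), Shisa3 (r = 0.987) and Fam104a (r = 0.985). Skil measured 10.7, 12.2 and 12.4 FPKM in controls 1, 2 and 3 and 21.6, 12.1 and 15.1 FPKM in mutants 1, 2 and 3. Like Ctgf it was highest in mutant 1 and inside the control range in mutant 2. Without mutant 1 the r of the 5 genes was 0.948 to 0.988, over libraries already used to pick them. In all, 48 genes had an r of at least 0.95 with Ctgf over the 6 libraries. No gene was among the 5 closest to both Cyr61 and Ctgf.

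**Figure D4:**
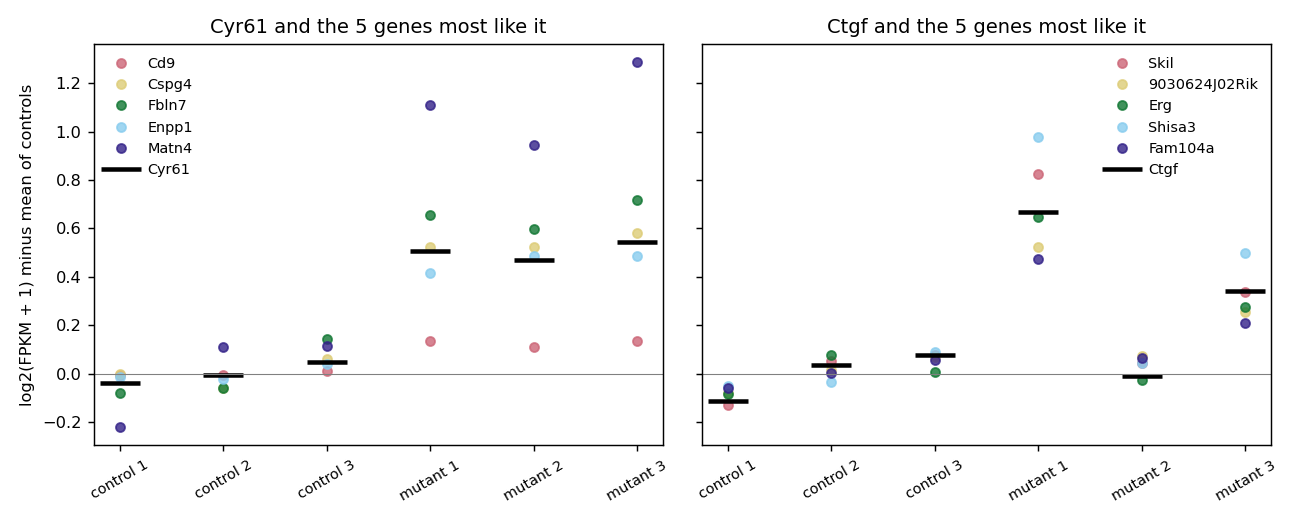
Log2(FPKM + 1) of Cyr61 (left) and Ctgf (right), as black bars, and of the 5 genes most like each, as points, minus the mean of the 3 controls, in the 6 libraries. Cyr61 and its 5 genes are raised in all 3 mutants, whereas Ctgf and its 5 genes are high in mutant 1, intermediate in mutant 3 and near the controls in mutant 2. The genes were picked by r over these same libraries, so their likeness is by choice.

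Partners and regulators of the CCN proteins were taken from lists, and 0 members of any list passed with equal weights. Of 23 receptors and binding partners 15 were above 0, with a median log2 difference of 0.20 against -0.046 over all genes tested (without mutant 1, 0.12 against -0.015). In 7 of the 23 every mutant was above every control, as in 8.98% of all genes tested, and in 2 every mutant was below. With array weights 1 passed, where 0.719% of all genes were called as higher in mutants and 1.32% as lower. It was Acan, the aggrecan core protein (limma adjusted p = 0.049). Acan averaged 78.0 FPKM (SD 7.07) in controls and 117 FPKM (SD 22.2) in mutants. Without mutant 1 Acan did not pass (limma adjusted p = 0.126). Vegfa, a growth factor that Ctgf binds, averaged 32.8 FPKM (SD 2.83) in controls against 45.6 FPKM (SD 5.93) in mutants (array weights, limma adjusted p = 0.157). Dcn, the decorin that Wisp1 binds, averaged 162 FPKM (SD 12.6) in controls and 114 FPKM (SD 21.4) in mutants, and each mutant was below each control, as in 11.9% of genes tested (array weights, limma adjusted p = 0.0507).

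Of 17 genes for Hippo components and TEAD factors, the known upstream route to Cyr61 and Ctgf, 6 were above 0 with a median log2 difference of -0.12, and 0 were called with array weights. Without mutant 1, 8 were above 0 and the median was -0.033. Yap1 averaged 64.8 FPKM (SD 3.33) in controls and 55.4 FPKM (SD 13.5) in mutants. Wwtr1, which encodes TAZ, averaged 31.7 FPKM (SD 1.41) and 39.6 FPKM (SD 6.11). For Wwtr1 each mutant was above each control, as in 8.98% of all genes tested. Tead2, the most abundant TEAD factor here, was at 173 FPKM (SD 13.7) and 217 FPKM (SD 39.7), and Stk4, a kinase upstream of YAP, at 11.1 FPKM (SD 0.453) and 7.76 FPKM (SD 3.06). Without mutant 1 the log2 difference went from -0.25 to -0.044 for Yap1, from 0.30 to 0.19 for Wwtr1, from 0.31 to 0.17 for Tead2 and from -0.54 to -0.20 for Stk4. The other TEAD factors did not share the direction of Tead2. Their difference went from 0.11 to -0.32 for Tead1, from -0.18 to -0.10 for Tead3 and from -0.95 to 0.0082 for Tead4. Tead4 was listed at 0 in mutant 1.

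Of 21 other YAP and TAZ target genes 16 were above 0 (median log2 difference 0.14), and 13 were above 0 without mutant 1 (median 0.058 against -0.015 over all genes). Array weights called 1 of them, where 0.719% of all genes were called as higher in mutants and 1.32% as lower. It was Fjx1, the four-jointed box gene (limma adjusted p = 0.0479). Fjx1 averaged 10.1 FPKM (SD 1.12) in controls and 17.7 FPKM (SD 4.41) in mutants. Without mutant 1 Fjx1 did not pass (limma adjusted p = 0.109). Amotl2, an angiomotin, averaged 39.5 FPKM (SD 3.83) and 49.4 FPKM (SD 5.36). Ankrd1, another textbook target beside Cyr61 and Ctgf, measured 4.88, 5.65 and 4.43 FPKM in controls 1, 2 and 3 and 5.33, 10.7 and 7.94 FPKM in mutants 1, 2 and 3 (array weights, limma adjusted p = 0.0614). It was highest in mutant 2, where Ctgf was lowest among mutants. Such orders rest on 3 mutant libraries, with mutant 1 among them, and shared control of these genes was not tested.

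Of 13 TGF-beta genes 9 were above 0, and 6 without mutant 1 (median log2 difference 0.13, and -0.0041 without it). Smad3, a transducer of TGF-beta, averaged 44.8 FPKM (SD 4.72) in controls and 60.3 FPKM (SD 17.8) in mutants. Eng, the co-receptor endoglin, averaged 34.9 FPKM (SD 2.77) and 48.4 FPKM (SD 17.0). Both were highest in mutant 1, and without it the log2 difference went from 0.39 to 0.16 for Smad3 and from 0.41 to 0.15 for Eng. Of 15 SRF and actin genes 9 were above 0 (median 0.096), and 9 without mutant 1 (median 0.093). Each mutant was above each control in 3 of the 15, as in 8.98% of all genes tested. Among the 3 was Tagln, the actin-binding transgelin, at 32.5 FPKM (SD 1.96) in controls and 55.3 FPKM (SD 17.1) in mutants. Tagln was highest in mutant 1, and without that library its log2 difference went from 0.70 to 0.49 (limma adjusted p = 0.215). Flna, filamin A, averaged 162 FPKM (SD 6.25) and 185 FPKM (SD 10.1). Tpm1, a tropomyosin, averaged 746 FPKM (SD 86.1) and 644 FPKM (SD 25.5), each mutant being lower, as in 11.9% of all genes tested. Of 11 tested Wnt response genes 5 were above 0 (median -0.046, that of all genes). Among them Nkd2, a feedback inhibitor, averaged 8.38 FPKM (SD 1.36) and 11.9 FPKM (SD 3.67), and Tcf7l1, a TCF factor, 43.0 FPKM (SD 6.84) and 57.0 FPKM (SD 20.2). Both were highest in mutant 1, and without it the log2 difference went from 0.43 to 0.21 for Nkd2 and from 0.36 to 0.088 for Tcf7l1. For the TCF factors Tcf7 and Tcf7l2 it went from -0.33 to -0.65 and from -0.10 to -0.33. Neither Tcf7 nor Tcf7l2 was called (array weights, limma adjusted p = 0.0742 and 0.114). Lef1, a factor of the same pathway, was at 3.67, 5.23 and 3.21 FPKM in controls 1, 2 and 3 and at 0, 2.93 and 2.86 FPKM in mutants 1, 2 and 3, with a log2 difference of -1.005 that was -0.35 without mutant 1. Array weights called 0 genes of the TGF-beta, SRF and Wnt lists.

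Other matricellular genes serve as a comparison for the family. Of 16 tested 9 were above 0, with a median log2 difference of 0.14 against -0.046 over all genes tested. Array weights called 2 of them, where 0.719% of all genes were called as higher in mutants and 1.32% as lower. Of the 5 CCN genes, 4 were tested and 1 was called there. Smoc1, a SPARC-related gene, averaged 15.7 FPKM (SD 1.32) in controls and 27.4 FPKM (SD 5.20) in mutants (limma adjusted p = 0.0279). Spp1, the osteopontin gene of bone, averaged 319.9 FPKM (SD 58.4) in controls and 94.7 FPKM (SD 21.0) in mutants (limma adjusted p = 0.00929). Without mutant 1 neither passed (limma adjusted p = 0.0713 for Smoc1 and 0.0505 for Spp1). Tnc, tenascin C, averaged 35.2 FPKM (SD 1.46) and 44.5 FPKM (SD 2.58), with no call (array weights, limma adjusted p = 0.0949). For Tnc each mutant was above each control, as in 8.98% of all genes tested.

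**Figure D5:**
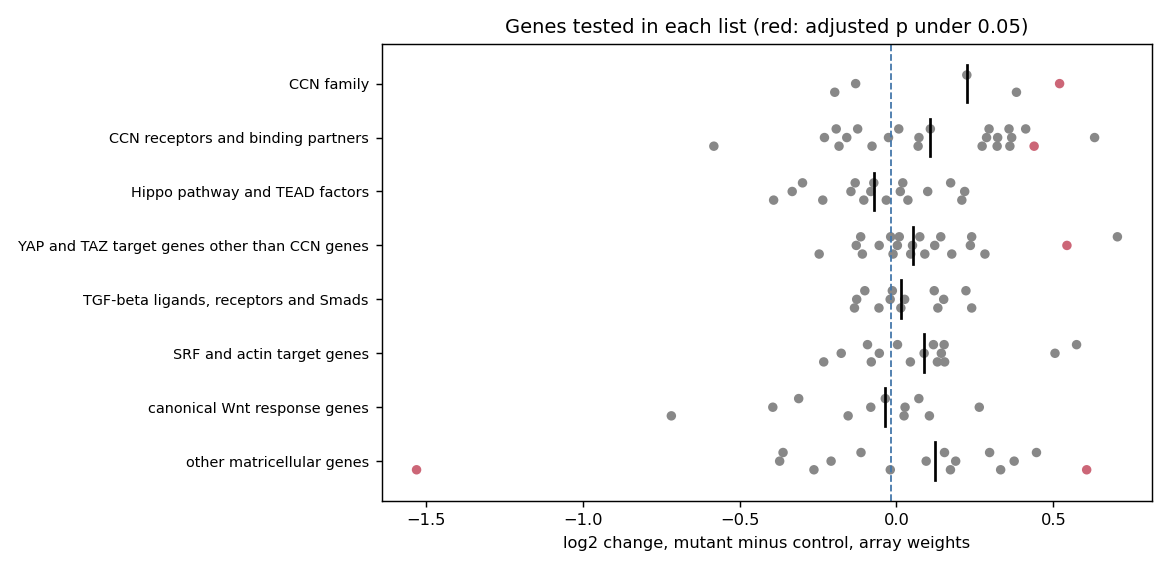
Difference in log2 values between mutants and controls with array weights for each gene tested in 8 lists; black ticks are list medians, the dashed line is the median of all genes tested (-0.017), and red points have an adjusted p under 0.05. The red points are Cyr61, Acan, Fjx1, Spp1 and Smoc1.

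Markers of several cell types moved with genotype beside Cyr61, and their part in its level was not tested. In bulk tissue fewer cells of a type and less RNA per cell cannot be told apart. Among all genes tested, 8.98% had every mutant above every control and 11.9% had every mutant below every control. All 6 chondrocyte markers had every mutant above every control, with a summed level of 2416 to 3221 FPKM in controls and 3632 to 4160 FPKM in mutants. The ratio of Cyr61 to Col2a1, chosen after the values were seen, was 0.0149 to 0.0197 in controls and 0.0171 to 0.0202 in mutants, so it overlapped. All 3 tendon markers were likewise higher, with sums of 46.5 to 56.7 and 69.4 to 91.2 FPKM. Of the 5 pericyte and smooth muscle markers 2 were higher in each mutant and 1 lower, and their sums overlapped (151 to 201 and 163 to 230 FPKM). Endothelial markers had 1 of 5 higher, with sums of 134 to 151 and 148 to 159 FPKM. The osteoblast markers had 3 of 5 lower in each mutant, with sums of 688 to 1061 and 258 to 525 FPKM, made up mostly of Ibsp. Runx2 and Bglap overlapped between groups, and Bglap was listed at 0 in mutants 1 and 3. The fibroblast and perichondrium markers had 2 of 5 lower, with sums of 3248 to 4290 and 2860 to 3071 FPKM. Those 2 were Col1a1 and Col1a2, and Col3a1, Dpt and Pdgfra overlapped. All 5 fat cell markers were lower, with sums of 339 to 417 and 109.5 to 167 FPKM, made up mostly of Car3. Adipoq, Cidec and Plin1 were listed at 0 in mutant 1. Epithelial markers had 3 of 5 lower (sums of 282 to 305 and 152 to 169 FPKM). Those 3 were the keratins Krt5, Krt8 and Krt19, which made up most of the sum. The other markers overlapped, Epcam at means of 18.5 FPKM in controls and 21.5 FPKM in mutants and Cdh1 at 19.0 and 22.8 FPKM. Skeletal muscle markers had 2 of 4 lower, Ckm and Tnnt3 (760.2 to 1109 and 559 to 660 FPKM), and Myod1 and Myog overlapped. Of 3 hypertrophic chondrocyte markers 1 was higher in each mutant and 1 lower, and their sums, made up mostly of Col10a1, overlapped (348 to 489 and 408 to 459 FPKM). The lower one, Mmp13, the collagenase of late hypertrophic cartilage and bone, measured 26.99, 19.0 and 33.3 FPKM in controls 1, 2 and 3 and was listed at 0, 1.28 and 1.19 FPKM in mutants 1, 2 and 3. It was not called with equal weights (limma adjusted p = 0.437) and fell with array weights (limma adjusted p = 0.00159) and without mutant 1 (limma adjusted p = 0.00977). The sums of macrophage and neuron markers overlapped. Nov and Wisp1 overlapped between genotypes beside these lower bone and fibroblast sums.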

How the data were processed

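RNA-seq libraries of 6 embryos were analysed from 1 deposited table. Its values are FPKM made by the authors, and the unit was inferred from Cufflinks, named with build mm9 in the submitters' processing notes, since the file headers name none. No source used here names the aligner or the annotation. The deposited fold is a signed score. The authors' p-value and q-value rest on an unnamed test, and a q of 99 marks 37016 entries with none. The code 999999999 was treated as missing and 15 entries with it were left out.

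The 15710 genes averaging 1 FPKM or more were fitted together in limma 3.58.1 (R 4.3.3) on log2(FPKM + 1). Genotype was the sole term, eBayes used its trend and robust options, and two-sided p-values were adjusted by Benjamini-Hochberg, with calls under 0.05. The log2(FPKM + 1) scale understates the change of low genes. The test was tried on simulated data in which all libraries had the same spread. None of them was like mutant 1, so the trial does not show how the fit handles such a library. Alternatives changed pseudocount, filter, weights, scaling, variance estimate, a random effect of the first title word, and libraries, 1 at a time. Depth came from values under 0.1 FPKM. Replicate numbers follow accession order and pair no samples. Embryos are separate by label, and p-values measure the spread between these libraries.

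The members and lists were chosen with earlier results of these data known. All members were named, as were the 3 genes with the smallest p in each list, the 5 genes most like Cyr61 and the 5 most like Ctgf, and markers given beside a member. Yap1, Memo1, Tead1, Tead3, Tead4, Tcf7, Tcf7l2 and the ratios were added after values were seen. Coordinates are RefSeq's of GRCm38.p6, not of mm9, and gene structure is GENCODE's by gene ID.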

Additional observations from a re-analysis of the deposited data

How the results depend on the processing

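Over all genes 0 were called with equal weights, 1 with a filter of 10 FPKM, 1 after quantile normalization and 320 with array weights (limma). Leaving out 1 library at a time gave 0 to 7, the highest without mutant 1. Array weights alone moved Cyr61 past the threshold (log2 difference 0.52). With a library left out, the log2 difference was 0.49 to 0.53 for Cyr61, 0.17 to 0.51 for Ctgf, -0.28 to 0.0081 for Nov and -0.16 to 0.051 for Wisp1, with the sign turned for Nov without mutant 2 (0.0081) and for Wisp1 without control 3 (0.051) or mutant 2 (0.042). Scaling to a common median took the median of all genes from -0.046 to -0.13 and Cyr61 to 0.42. Wisp3 turned to 0.38 with array weights, and with a library left out it ran from -1.26 to 0.34, the highest without mutant 1. The 31 other genes followed were those named for the smallest p in their list or the highest r with Cyr61 or Ctgf. Of these, 30 kept their sign in all alternatives, Wisp3 being the exception, and such a choice favours a steady sign. Genes named for other reasons were not in this count, and some of them turned. The log2 difference of Memo1 went from 0.074 to -0.011 without mutant 1. That of Acta2 went from -0.099 to 0.0032 with array weights. The share differences kept their sign with any 1 library left out, Cyr61 at 4.26 to 8.36 points. Wisp2 did not pass the filter, so it was tested only with no filter and the other settings were not run for it. The cause of each turn was not tested. Depth of mutant 1 is not known, and it limits every gene of the family.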

Other observations

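Nov and Wisp1 ranked the libraries of each group alike. Both were lowest in control 2 and highest in control 3 among controls, and both were lowest in mutant 2 and highest in mutant 1 among mutants. Wisp2 and Wisp3 were also lowest in control 2 and highest in control 3. Cyr61 did not share this order, with control 1 its lowest control. The ratio of Nov to Wisp1 was 0.791 to 0.965 in controls and 0.729 to 0.873 in mutants. The ratio of Cyr61 to Acta2, the smooth muscle actin gene, was 0.174 to 0.206 in controls and 0.264 to 0.320 in mutants, with no overlap. Acta2 itself overlapped, at means of 173 FPKM in controls and 161 FPKM in mutants, so this ratio mostly repeats the Cyr61 difference. Cspg4 was picked for its r with Cyr61, so a steady ratio to it follows from the choice. Which cells made Cyr61 was not tested. These orders and ratios were noticed after the values were seen and were not tested.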
